A study of Mus musculus with 7 samples.

Results

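The genes of the troponin complex and of tropomyosin, the calcium-controlled regulators of the muscle thin filament, were taken by symbol from the table of TMM-scaled log2 values, where 9 of 12239 genes carried one of the chosen symbols. They were the fast-fibre troponins Tnnt3, Tnni2 and Tnnc2, the slow-fibre troponins Tnnt1 and Tnnc1, and the tropomyosins Tpm1, Tpm2, Tpm3 and Tpm4. The rule takes these genes by name, with no threshold on their values. All 9 were followed in all 7 libraries.

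The libraries came from the tibialis anterior (TA), a fast-twitch muscle at the front of the lower leg, of male FVBN mice aged 5 to 6 months by the sample titles, where the study's methods begin the age range earlier. The wild-type (WT) group held 4 libraries. The C2-/- group held 3 libraries, from mice in which a Neo cassette between LoxP sites replaced exons 2 to 22 of Mybpc2, which encodes the myosin-binding protein C of fast fibres (fMyBP-C). This is a germline loss present in every cell and at every age, so the muscle had also developed without the protein. The series' design text gives 4 animals in each group, and 3 C2-/- libraries were analysed here. Polyadenylated RNA was selected with oligo(dT), and sequencing was done on DNA nanoballs.

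Thin filaments are double strands of actin with tropomyosin lying along them and a troponin complex at each tropomyosin. When calcium binds troponin C, the inhibitory subunit troponin I releases actin, troponin T passes the change on to tropomyosin, and tropomyosin moves off the sites where myosin binds. Fast and slow fibres build this complex from different genes, so the isoforms a muscle transcribes are a common readout of its fibre type. Tpm1 gives the alpha tropomyosin of fast fibres, Tpm2 the beta form, Tpm3 the alpha form of slow fibres, and Tpm4 a form found mainly in non-muscle cells and the cytoskeleton. In whole-muscle RNA, fewer cells of a type and less RNA per cell cannot be told apart.

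Each library's reads could be recovered as whole numbers. The 3 deepest WT libraries held between 14929214 and 15464499 reads in the table, WT replicate 4 held 4683853, and the C2-/- libraries held from 2613277 to 4917936. A count of 3 reads corresponded to between 0.195 and 1.12 CPM (read counts scaled to the size of the library) across the libraries. Mybpc2 itself had 100452, 110159, 83371 and 25665 reads in WT replicates 1 to 4 and 6, 8 and 3 reads in C2-/- replicates 1 to 3, so every library matched its label. Over all genes, 2473 were higher and 3055 lower in C2-/- at a limma adjusted p under 0.05 and a fold over 1.5, and the median log2 change of all genes was -0.14. The change also followed the GC content of the transcript, from a median log2 change of 1.11 in the lowest decile of GC to -1.73 in the highest. Changes of the 9 genes, their isoform differences and the named thin filament genes are therefore given as deposited and after a GC correction, in which a smooth curve on GC content was removed from each library.

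The fast and slow troponin C genes are the pair with the same subunit role and both promoters at hand, and their levels in this muscle were far apart, so the 250 bases before each RefSeq start site are shown here on GRCm38.p6. Tnnc2 lies on the minus strand and its window is chr2:164779735-164779984. Tnnc1 lies on the plus strand and its window is chr14:31208062-31208311. Capitals mark matches to the E-box letters CANNTG, the motif that MyoD-type muscle factors bind.
Tnnc2: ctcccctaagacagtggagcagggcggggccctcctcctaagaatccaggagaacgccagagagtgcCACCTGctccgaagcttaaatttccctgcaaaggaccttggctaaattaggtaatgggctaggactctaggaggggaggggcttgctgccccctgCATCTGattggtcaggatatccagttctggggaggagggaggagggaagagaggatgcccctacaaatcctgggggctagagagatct
Tnnc1: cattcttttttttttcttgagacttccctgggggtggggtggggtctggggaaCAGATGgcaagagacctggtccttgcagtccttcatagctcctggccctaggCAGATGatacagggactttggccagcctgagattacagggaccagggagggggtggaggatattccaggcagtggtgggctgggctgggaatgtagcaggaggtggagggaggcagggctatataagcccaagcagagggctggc
Both windows held 2 matches, whose first bases were at -183 and -88 in Tnnc2 and at -197 and -145 in Tnnc1, counted from the start site. Windows of 250 bases before to 50 after the start were at hand for 7 of the 9 genes, as 8 windows because Tpm3 has 2 starts. Each of the 8 held at least 1 match to CANNTG, a motif that reads the same on both strands, as did 72.3% of all 32851 mouse promoter windows of that length. The TATA box letters TATAAA, searched on both strands, were found in 13.6% of all windows and, among the 8, in that of Tnnt1, with the first base at -30. The MEF2 site (0.6% of all windows) and the CArG box (1.6%) were found in none of the 8. These matches are letters in a window and not measured binding. No window was at hand for Tnnt3 and Tnni2.

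The fast troponins were among the most abundant transcripts of the muscle, and none of the 3 passed the test. Tnnt3 encodes fast troponin T, which anchors the complex to tropomyosin (chromosome 7, 142498836 to 142516009 on GRCm38, the build of all gene positions here). Its log2 CPM values were 14.23, 14.35, 14.19 and 14.03 in WT replicates 1 to 4 and 14.05, 13.74 and 13.97 in C2-/- replicates 1 to 3. The 2 ranges met only at their edge, where C2-/- replicate 1 was just above WT replicate 4. The mean was 14.20 ± 0.13 (SD, n = 4) in WT and 13.92 ± 0.16 (SD, n = 3) in C2-/-, and the log2 change was -0.28 ± 0.26 (SE) with a limma adjusted p of 0.381.

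Tnni2 encodes fast troponin I, the inhibitory subunit (chromosome 7, 142441808 to 142444410), and its annotated end lies 54.4 kilobases from the start of Tnnt3. Its log2 CPM values were 12.51, 12.79, 12.54 and 12.25 in WT and 11.91, 11.89 and 12.12 in C2-/-. All 3 C2-/- libraries were below all 4 WT libraries. The means were 12.52 ± 0.22 (SD, n = 4) and 11.97 ± 0.13 (SD, n = 3), and the change of -0.55 ± 0.21 (SE) on the log2 scale (limma adjusted p = 0.0521) did not pass the test. It passed without C2-/- replicate 3 (-0.62, adjusted p = 0.0497) or without WT replicate 4 (-0.64, adjusted p = 0.0151).

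Tnnc2 encodes fast troponin C, the calcium sensor (chromosome 2, 164777161 to 164779967). Its log2 CPM values were 13.05, 13.34, 13.15 and 13.05 in WT and 12.45, 12.30 and 13.16 in C2-/-. C2-/- replicate 3 sat in the WT range, while the other two C2-/- libraries were below every WT library. The mean was 13.15 ± 0.14 (SD, n = 4) in WT and 12.64 ± 0.46 (SD, n = 3) in C2-/-, and the change on the log2 scale was -0.51 ± 0.26 (SE; limma adjusted p = 0.13). Without C2-/- replicate 3 the change was -0.77 and passed (adjusted p = 0.0236). Of the 800 exonic bases of Tnnc2, 592 are overlapped by exons of Ube2c on the opposite strand, while the table gave Ube2c from 0 to 22 reads per library.

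After the GC correction the 3 fast troponins turned to the other direction, with log2 changes of 0.44 for Tnnt3, 0.68 for Tnni2 and 0.40 for Tnnc2. Tnni2 then passed the test as higher in C2-/- (SE 0.22, limma adjusted p = 0.0479), and Tnnt3 and Tnnc2 did not (adjusted p = 0.223 and 0.317). Their transcripts held 53.2%, 56.4% and 54.3% GC. Genes in general had median changes of -0.70, -1.01 and -1.28 in the deciles centred at 53.0%, 54.9% and 56.9% GC. The direction of the fast troponins therefore depended on whether GC was corrected. Set against WT replicate 4 alone, the WT library nearest in depth to C2-/-, the uncorrected changes were -0.12 for Tnnt3, -0.28 for Tnni2 and -0.41 for Tnnc2.

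**Figure D1:**
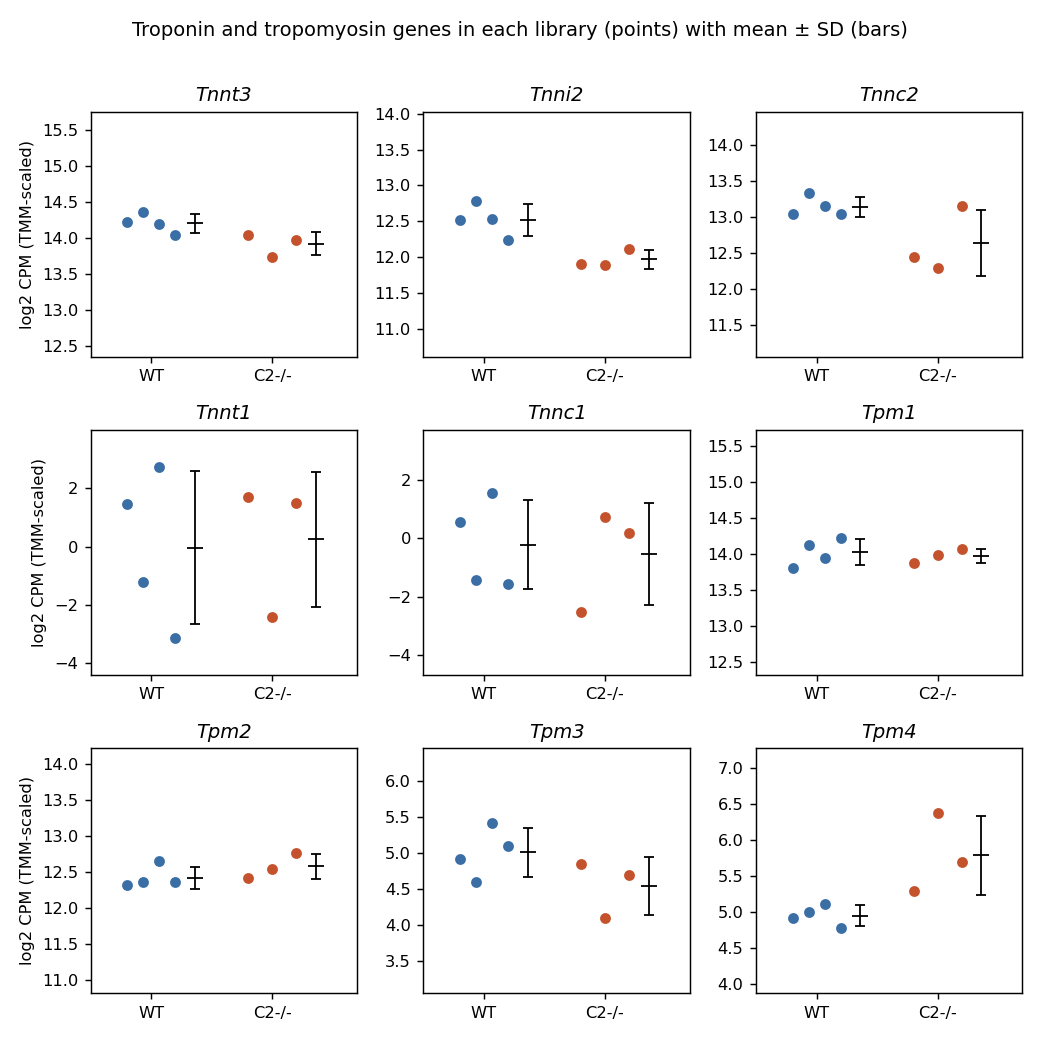
Log2 CPM of the 9 genes in each library, with WT in blue, C2-/- in orange (replicates left to right) and black bars for the mean ± SD (n = 4 and n = 3). Every panel has its own range, with a wider axis for Tnnt1 and Tnnc1, and the 3 C2-/- points lie below the 4 WT points in Tnni2 and above them in Tpm4.

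The slow troponins had few reads in every library. Tnnt1 encodes slow troponin T (chromosome 7, 4504570 to 4516382). It had 42, 6, 101 and 0 reads in WT replicates 1 to 4 and 9, 0 and 13 reads in C2-/- replicates 1 to 3. WT replicate 3 was the highest library and each group held a library with none, so the groups overlapped over their whole range. On the log2 CPM scale the values were 1.47, -1.20, 2.72 and -3.14 in WT and 1.71, -2.42 and 1.48 in C2-/-, where the lowest value of each group stands for 0 reads at that library's depth. The change of 0.29 ± 1.46 (SE) on the log2 scale (limma adjusted p = 0.88) had a 95% interval from -2.96 to 3.54. The spread was already wide among the 3 deepest WT libraries, with 6 to 101 reads.

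Tnnc1 encodes the troponin C of slow fibres and heart (chromosome 14, 31208312 to 31211729). It had 22, 5, 45 and 1 reads in WT and 0, 4 and 5 reads in C2-/-. Its log2 CPM values were 0.55, -1.44, 1.57 and -1.55 in WT and -2.54, 0.75 and 0.19 in C2-/-. The groups again overlapped, and the change was -0.31 ± 1.07 (SE) on the log2 scale, with a 95% interval from -2.70 to 2.07 (limma adjusted p = 0.825). The GC-corrected changes were 1.17 for Tnnt1 (adjusted p = 0.58) and 0.51 for Tnnc1 (adjusted p = 0.766). Tnnc1 lies inside Nisch, a gene on the opposite strand with 72 to 1571 reads per library, and their exons share no base.

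Among the WT libraries the slow troponins were ordered alike, highest in replicate 3, then replicates 1, 2 and 4. Myl3, the slow myosin light chain, had 275, 121, 500 and 2 reads in the same 4 libraries, which is the same order. In C2-/- replicates 1 to 3, Tnnc1 (0, 1.497 and 1.03 CPM) and Myl3 (1.03, 12.7 and 3.31 CPM) were highest in replicate 2, the library in which Tnnt1 (3.10, 0 and 2.69 CPM) had no reads. Tnni1, the slow troponin I gene that would pair with Tnni2, was not analysed here. Of the 4 slow fibre markers in the table (Myh7, Myl3, Atp2a2, Casq2), none passed the test (20.2% of all genes were higher and 25.0% lower), and Myh7, the slow myosin heavy chain, had 18, 16, 27 and 0 reads in WT and 0 in all 3 C2-/- libraries. With GC corrected, 1 of the 4 was higher, Atp2a2, the slow calcium pump (0.66, limma adjusted p = 0.0398), beside 12.3% of all genes.

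Tropomyosin reads were almost all from Tpm1 and Tpm2, and neither passed the test on the deposited values. Tpm1 (chromosome 9, 67022590 to 67049406) had log2 CPM values of 13.81, 14.12, 13.95 and 14.23 in WT and 13.88, 13.99 and 14.08 in C2-/-. Every C2-/- value lay inside the WT range. The mean was 14.03 ± 0.18 (SD, n = 4) against 13.98 ± 0.10 (SD, n = 3), and the log2 change was -0.05 ± 0.26 (SE), with a limma adjusted p of 0.885 and a 95% interval from -0.62 to 0.52. Its GC-corrected change was 0.07. Tpm1 also supplies smooth muscle and non-muscle forms through alternative exons, and these gene-level values do not separate them.

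Tpm2, the beta tropomyosin gene (chromosome 4, 43514711 to 43523765), had log2 CPM values of 12.32, 12.36, 12.65 and 12.35 in WT and 12.42, 12.54 and 12.77 in C2-/-. The groups overlapped because WT replicate 3 was higher than 2 of the C2-/- libraries. The means were 12.42 ± 0.15 (SD, n = 4) and 12.58 ± 0.18 (SD, n = 3), and the change on the log2 scale was 0.16 ± 0.21 (SE; limma adjusted p = 0.548). After the GC correction the change was 1.20 (SE 0.23) and passed the test as higher in C2-/- (limma adjusted p = 0.00722), for a transcript of 55.1% GC.

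Tpm3, the slow alpha tropomyosin gene (chromosome 3, 90072649 to 90100902), was expressed at a low level. Its log2 CPM values were 4.92, 4.60, 5.42 and 5.10 in WT and 4.84, 4.09 and 4.70 in C2-/-. The groups overlapped, although the lowest library was C2-/- replicate 2 with 45 reads. The change was -0.47 ± 0.27 (SE) on the log2 scale (limma adjusted p = 0.176) and -0.51 after the GC correction (adjusted p = 0.175). Tpm3 also has cytoskeletal forms in non-muscle cells, and 23.2% of the 50-base stretches in its transcripts also occur in Tpm3-rs7, Gm7848 or Gm7839, so its level is uncertain if reads matching several places were dropped or split.

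Tpm4 (chromosome 8, 72134975 to 72153142) was the one gene of the 9 that passed the test on the deposited values, and it rose. Its log2 CPM values were 4.92, 4.99, 5.11 and 4.77 in WT and 5.29, 6.37 and 5.69 in C2-/-. All 3 C2-/- libraries were above all 4 WT libraries, and C2-/- replicate 2 was the highest. The mean rose from 4.94 ± 0.14 (SD, n = 4) to 5.78 ± 0.55 (SD, n = 3). The log2 change was 0.84 ± 0.26 (SE), with a limma adjusted p of 0.0231, which is 1.79-fold with a 95% interval from 1.20 to 2.66. In reads these were 463, 475, 529 and 119 in WT and 113, 221 and 249 in C2-/-. Tpm4 made up 0.154%, 0.137%, 0.154% and 0.110% of all tropomyosin reads in WT and 0.188%, 0.371% and 0.212% in C2-/-, so it stayed a trace of the tropomyosin message in both groups.

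The call of Tpm4 was lost without C2-/- replicate 2 (0.54, adjusted p = 0.0672), without WT replicate 1 (0.83, 0.0549) and without WT replicate 2 (0.85, 0.0514). Against WT replicate 4 alone the change was 1.02. With GC corrected it was 0.42 (adjusted p = 0.274), and the Tpm4 transcript had the lowest GC content of the 9 genes at 45.9%. Markers of fibroblasts, a non-muscle cell of this tissue, were higher in the same libraries. All 4 of 4 (Pdgfra, Dcn, Col1a1, Col1a2) rose, beside 20.2% of all genes, and 3 of them also with GC corrected, beside 12.3%. Their summed level was 415 to 675 CPM in WT and 1551 to 1930 CPM in C2-/-. Among other cell types, 1 of 4 smooth muscle markers fell (Tagln, with GC corrected Myh11 was higher instead), and none of 3 endothelial and none of 4 macrophage markers passed, beside 45.2% of all genes called in either direction. The single cardiac marker in the table, Tnnt2, had from 5 to 69 reads per library and did not pass. The part of these cells in the Tpm4 result was not tested. In addition, 11.7% of the 50-base stretches of Tpm4 transcripts also occur in Gm7809, and 134 of its 2203 exonic bases are overlapped by Gm26586 on the opposite strand.

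**Figure D2:**
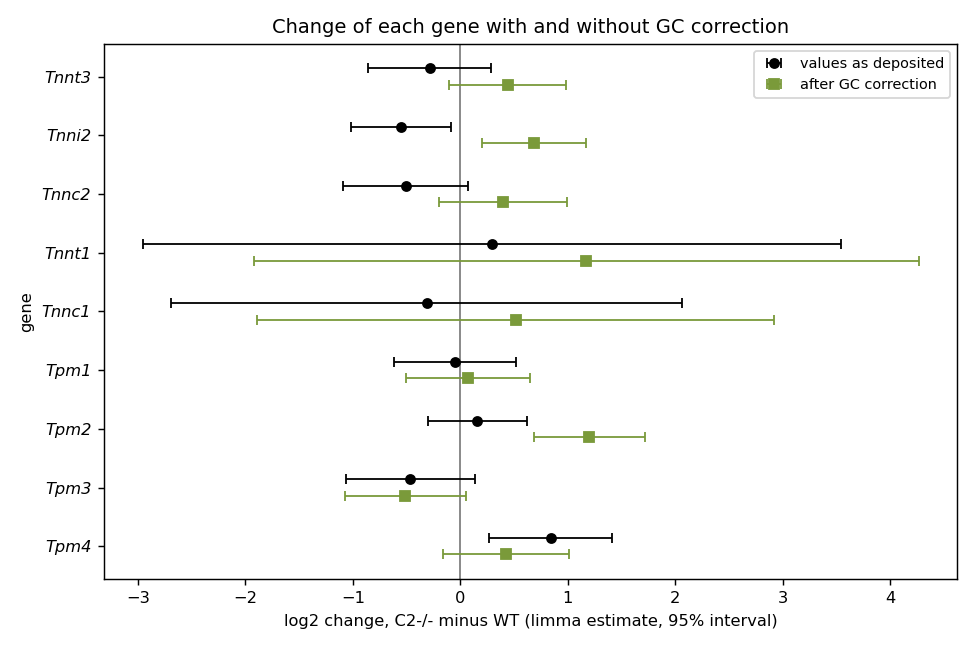
Log2 change (C2-/- minus WT, limma estimate with 95% interval) of the 9 genes, from the deposited values (black circles) and after GC correction (green squares). Tpm4 is at 0.84 as deposited and 0.42 after correction, while Tpm2 moves from 0.16 to 1.20 and Tnni2 from -0.55 to 0.68.

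Counted together, 1 of the 9 genes was higher in C2-/- and none was lower, where 20.2% of all tested genes were higher, 25.0% were lower and 45.2% were called in either direction. At an unadjusted p under 0.05, limma put 1 gene lower, Tnni2, with no count over all genes at hand. Limma-voom on the recovered reads gave Tnni2 an adjusted p of 0.00993 and Tnnc2 (-0.50) one of 0.0424, both at a fold still under 1.5. The groups did not overlap in 2 of the 9 genes, Tnni2 and Tpm4, against 49.3% of all genes. The median log2 change of the 9 was -0.28. With GC corrected, 2 of the 9 were higher (Tnni2 and Tpm2) and none was lower, against 12.3% and 8.31% of all genes tested. Together the 9 genes took 5.45%, 5.96%, 5.66% and 5.13% of the reads in WT replicates 1 to 4 and 4.97%, 4.58% and 5.30% in C2-/- replicates 1 to 3. These shares overlapped between the groups.

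Levels of different genes were compared per kilobase of the longest protein-coding transcript, as RPKM, which scales reads by transcript length and library size. In WT the order was Tnnt3 (17499 ± 1594), Tnnc2 (13016 ± 1289), Tnni2 (7730 ± 1184), Tpm1 (5827 ± 740), Tpm2 (2530 ± 281), Tpm3 (14.7 ± 3.47), Tpm4 (14.5 ± 1.44), Tnnt1 (2.29 ± 2.85) and Tnnc1 (1.71 ± 1.74), each as mean ± SD with n = 4. The neighbours Tnni2 and Tpm1, Tpm3 and Tpm4, and Tnnt1 and Tnnc1 overlapped in range. In C2-/- Tnnt3 (14392 ± 1558) and Tnnc2 (9433 ± 3187) led again but overlapped, and Tnni2 (5244 ± 470) and Tpm1 (5604 ± 374) overlapped too, all with n = 3. Tpm4 (27.1 ± 10.6) lay above Tpm3 (10.6 ± 2.75) in every C2-/- library. With the length of all annotated exons in place of the longest transcript, Tpm3 had a mean of 5.40 and Tpm4 of 14.0 in WT. Tnnt1 (1.10) and Tnnc1 (1.18) also changed order in WT, as did Tnni2 (2690) and Tpm1 (2497) in C2-/-. The order within these pairs therefore rests on the length used.

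The fast-to-slow balance of each subunit was read as a log2 difference within a library, which does not depend on the library's scaling. Troponin T (Tnnt3 minus Tnnt1) stood at 12.76, 15.56, 11.46 and 17.17 in WT and at 12.34, 16.15 and 12.49 in C2-/-. The values of 17.17 (WT replicate 4) and 16.15 (C2-/- replicate 2) rest on 0 reads of Tnnt1, so they are set by the 0.5 added reads and the depth and are no exact differences. The groups overlapped. The mean was 14.24 ± 2.60 (SD, n = 4) against 13.66 ± 2.16 (SD, n = 3), and the change of -0.58 gave p = 0.8 in a two-sided exact permutation test (0.943 adjusted over the 4 differences). With GC corrected the change was -0.73 (exact permutation p = 0.686). The means, SDs and tests take the values at 0 reads as they stand. The smallest p that this test can give with 4 and 3 libraries is 0.0286.

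Troponin C (Tnnc2 minus Tnnc1) stood at 12.50, 14.79, 11.59 and 14.60 in WT and at 14.99, 11.55 and 12.97 in C2-/-. The 14.99 of C2-/- replicate 1 likewise rests on 0 reads of Tnnc1. Both groups spread widely and overlapped, with means of 13.37 ± 1.58 (SD, n = 4) and 13.17 ± 1.73 (SD, n = 3) and a change of -0.20 (exact permutation p = 0.943, the same after adjustment), or -0.12 with GC corrected (exact permutation p = 1). As a share of reads, Tnnt1 made up 0.0143%, 0.00191%, 0.0352% and 0 of the Tnnt1 and Tnnt3 reads in WT and 0.0183%, 0 and 0.0168% in C2-/-. By exact binomial 95% intervals, the 0 of 73663 reads in WT replicate 4 allows a share of up to 0.00501%. The 0 of 36475 in C2-/- replicate 2 allows up to 0.0101%. The exact binomial 95% interval in WT replicate 3 was 0.0287% to 0.0428%, above the interval in WT replicate 1 (0.0103% to 0.0193%). Such intervals and limits cover counting error only. WT libraries therefore differed from each other in slow troponin T by more than counting error.

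The fast to slow alpha tropomyosin difference (Tpm1 minus Tpm3) was 8.89, 9.52, 8.53 and 9.13 in WT and 9.04, 9.90 and 9.38 in C2-/-. C2-/- replicate 2 was the highest library and the groups overlapped. The means were 9.02 ± 0.42 (SD, n = 4) and 9.44 ± 0.43 (SD, n = 3), and the change of 0.42 toward the fast gene did not pass (exact permutation p = 0.257, adjusted 0.571). With GC corrected it was 0.58 (exact permutation p = 0.143), and without C2-/- replicate 2 it was 0.19 or without WT replicate 3 0.25. The 4 differences in each library are set out in the plot of isoform differences.

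The beta to fast alpha difference (Tpm2 minus Tpm1) was -1.50, -1.76, -1.31 and -1.88 in WT and -1.46, -1.44 and -1.31 in C2-/-. The C2-/- libraries lay close together at the upper end of the WT range. The means were -1.61 ± 0.26 (SD, n = 4) and -1.40 ± 0.08 (SD, n = 3), a change of 0.21 (exact permutation p = 0.286, adjusted 0.571). It was 0.12 without WT replicate 4 and 0.47 against WT replicate 4 alone. After the GC correction the change was 1.13 and the groups no longer overlapped (exact permutation p = 0.0286, the smallest possible). This p was not adjusted over the 4 differences, so it is not counted as passing. As a share of all tropomyosin reads, Tpm2 took 26.1%, 22.7%, 28.7% and 21.3% in WT and 26.5%, 26.8% and 28.7% in C2-/-, while Tpm1 took 73.6%, 77.0%, 70.9% and 78.4% in WT and 73.1%, 72.8% and 71.0% in C2-/-.

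**Figure D3:**
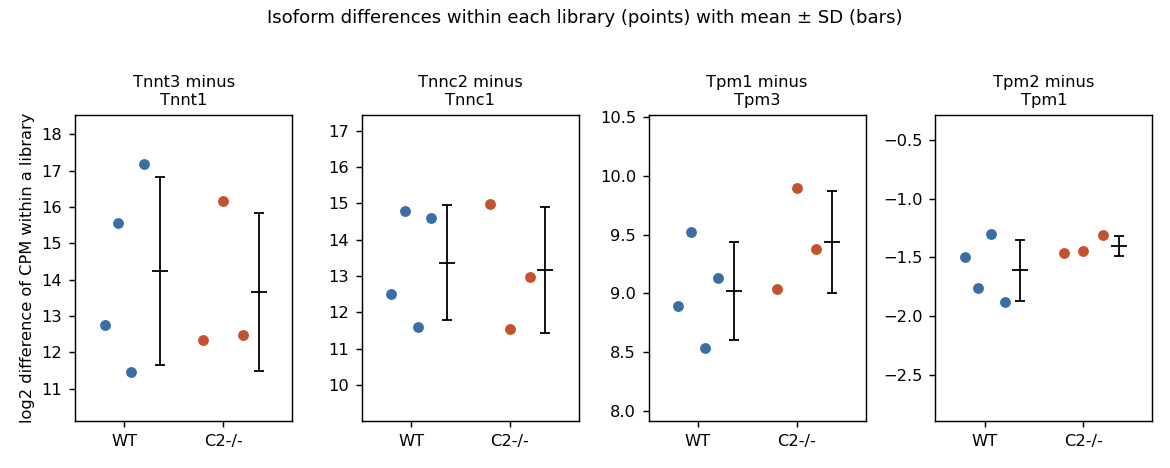
Log2 difference of CPM between isoform genes within each library, with WT in blue, C2-/- in orange and black bars for the mean ± SD (n = 4 and n = 3). The troponin panels have a wider axis than the tropomyosin panels, and the groups overlap in all 4 panels.

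Among the other genes of the thin filament, 11 passed the test. Of 21 listed genes, 18 were in the table (Nebl, Tnni1 and Tnni3 were not analysed here), and 7 were higher and 4 lower in C2-/-, beside 20.2% and 25.0% of all genes. Their median log2 change was 0.45. Acta1, the skeletal alpha-actin that forms the filament itself, fell by 2.02 on the log2 scale (SE 0.29, limma adjusted p = 0.000793), from 15.26 ± 0.07 (SD, n = 4) to 13.24 ± 0.37 (SD, n = 3). The Kelch-family genes Klhl40, which stabilises nebulin and leiomodin, and Kbtbd13 fell by 2.69 and 1.32. The call of Kbtbd13 was lost without C2-/- replicate 1 (-0.97) and without WT replicate 1 (-1.32), 2 (-1.29) or 3 (-1.08), and with reads thinned to the smallest total (-1.16, adjusted p = 0.0561).

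Of the 8 largest changes, the 5 upward ones were Cfl2 (1.54), a muscle cofilin that severs actin filaments, Lmod2 (1.22), a leiomodin that nucleates actin, and Tmod3 (1.20), a tropomodulin that caps the pointed end. Neb (1.14), the nebulin that runs along the filament, and Capzb (1.01), the beta subunit of the barbed-end cap, rose as well. Some of these calls rested on 1 library or setting and were lost for Lmod2 without C2-/- replicate 3 (0.77) or WT replicate 2 (1.04) and in the fit with no trend (adjusted p = 0.0546), for Neb without WT replicate 1 (1.04) or 3 (1.01), and for Capzb without C2-/- replicate 1 (0.95). The groups did not overlap in 10 of the 18 genes, beside 49.3% of all genes. Kbtbd13 and Capzb passed although their groups overlapped, and in Capzb it was WT replicate 4, at 9.15, that stood among the C2-/- values of 9.13 to 9.41. With GC corrected, 3 of the 18 were higher (Lmod2, Lmod3 and Capzb, where Lmod3 was named after its values were seen) and 1 was lower, Klhl40 at -1.08 (limma adjusted p = 0.0208), beside 12.3% and 8.31% of all genes. Lmod2 was then at 1.17 and Capzb at 1.504, whereas the calls of Cfl2 (0.14, adjusted p = 0.581), Tmod3 (0.28, 0.304), Neb (0.85, 0.0754), Kbtbd13 (-0.23, 0.737) and Acta1 (-0.70, 0.0938) were lost. With a replicate block added to the GC correction, 5 of the 18 were higher, Neb among them (1.08, adjusted p = 0.00938), beside 1793 of all 12168 genes. That block also takes away the weight of WT replicate 4, whose number no C2-/- library shares.

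Of 7 fast fibre markers, 5 fell (Actn3, Pvalb, Atp2a1, Ckm, Mylpf), beside 25.0% of all genes, and the myosin heavy chains Myh4 and Myh1 did not pass. The median log2 change was -1.01. Their summed level was 139764 to 163175 CPM in WT and 79034 to 94476 CPM in C2-/-. The fast troponins summed to 30088 to 38419 CPM in WT and 22496 to 29628 CPM in C2-/-, with no overlap but with WT replicate 4 as the lowest WT library. With GC corrected, 2 of the 7 markers were lower (Pvalb and Ckm), beside 8.31% of all genes, and the median was -0.06.

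**Figure D4:**
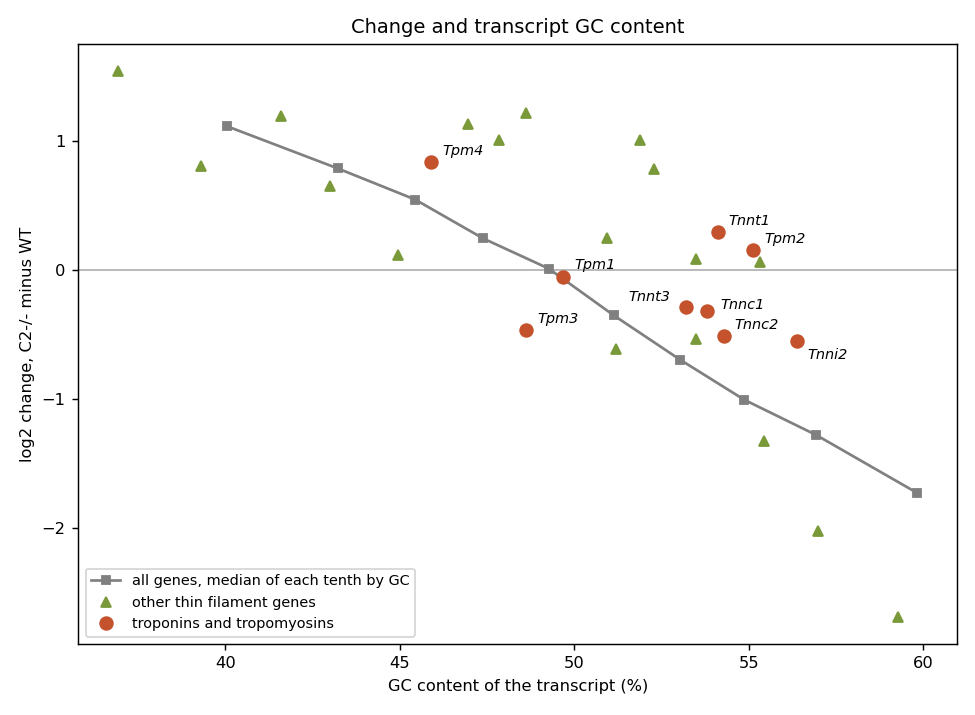
Log2 change (C2-/- minus WT, deposited values) against GC content of the transcript for the 9 genes (orange circles), the 18 other thin filament genes (green triangles) and the median of each GC decile of all genes (grey line). The grey line runs from 1.11 down to -1.73, and the fast troponins, Tnnt1, Tnnc1, Tpm2 and Tpm4 lie above it while Tpm3 lies below.

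The genes whose log2 values followed Tnnt3 most closely over the 7 libraries, among 7809 genes averaging 3 or more on the log2 scale, were Pfdn2 (Pearson r = 0.994), Bace1 (0.990), Mettl11b (0.985), Synrg (0.980) and Spag7 (0.979). These libraries also differ in depth and GC response, which all genes share, and 58 genes had an r over 0.95. For Tnnt1 close patterns were those of Irgm1 (0.944), Iigp1 (0.921), Lgals3bp (0.893) and Insig1 (0.888), with no gene over 0.95. The values of Tnnt1 rest on few reads.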

How the data were processed

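RNA sequencing of 7 TA libraries (4 WT, 3 C2-/-, grouped by sample title) was used. According to the study's methods and the submitters' processing notes, low-quality and adaptor reads were removed, the rest were aligned to GRCm38.p6 with HISAT and counted per gene with featureCounts 1.5.2. The authors scaled the counts with edgeR's TMM factors and deposited them as log2 CPM, 1 column per library. For genes with few reads, a log2 change on this scale can be shrunk, enlarged or turned, since 0.5 reads were added before the logarithm and 0 reads stand at -4.94 to -2.42 depending on the library's depth. The gene filter, the use of strand and the handling of multiply mapped reads are not given in the sources used here. A table of the authors' own comparison (log2 fold change, mean log2 value, moderated t, p-value, adjusted p-value and log-odds) was not used.

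The main test was limma 3.58.1 in R 4.3.3 (linear model on the deposited log2 values, empirical Bayes with a mean-variance trend, genotype as the only term), two-sided, with Benjamini-Hochberg adjustment over all 12239 genes. A gene passed at an adjusted p under 0.05 and a fold over 1.5. Isoform differences were tested by two-sided exact permutation of the genotype labels over libraries (35 arrangements), adjusted over the 4 differences. The p-values measure the spread between these samples. Every value gave a whole number of reads in all libraries (100%, none departing by more than 1.9e-08 reads), with totals of 2613277 to 15464499, and the limma voom fit and the thinned values rest on these reads. GC content was that of the longest protein-coding GENCODE M21 transcript, matched for 12168 genes (99.4%), and was corrected with a natural spline of 5 degrees of freedom per library. The limma fit was tested on simulated data before use. The genes named were the 9 troponins and tropomyosins, the 8 largest changes past the threshold in a list of other thin filament genes, marker lists given as counts and ranges, the 5 genes most like Tnnt3 and Tnnt1, and Mybpc2. 1 of the genes under this rule is not reported here. Individual genes within the marker lists were named after their values were seen. The members, lists and tests were chosen with earlier results of these data known. The alternatives were quantile normalization, median centring, GC correction, voom, no trend, library weights, a filter at a mean log2 value of 3, 2 added reads, an adjusted p under 0.01, thinning, a replicate block with and without GC correction, and leaving out each library.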

Additional observations from a re-analysis of the deposited data

Results flagged for a closer look

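One value of the 13 groups of WT values examined (4 libraries each) stood far from the rest. Tpm2 was at 12.647 log2 CPM in WT replicate 3, whereas the other 3 WT libraries were between 12.32 and 12.36. At the 95% limit used, chance alone singles out about 1 in 20 such groups, or 0.65 of 13. WT replicate 3 was also the WT library with the most Tnnt1, Tnnc1 and Tpm3.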

How the results depend on the processing

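Correction for GC content, alone or with the replicate block, turned the most directions. With GC corrected, the count of troponin and tropomyosin genes higher in C2-/- was 2 instead of 1 (2 also with the replicate block and GC correction), the other thin filament genes gave 3 higher (main 7) and 1 lower (main 4), with 5 higher and 1 lower with the block and GC correction, and Tpm2 minus Tpm1 was 1.13. Over all genes the counts fell from 2473 to 1491 higher and from 3055 to 1011 lower, and were 1793 and 1112 with the block as well. Log2 changes that reversed with GC corrected were Tnnt3 (0.44), Tnni2 (0.68), Tnnc2 (0.40), Tnnc1 (0.51) and Tpm1 (0.072). At an adjusted p under 0.01 the counts were 0 members higher, and 4 higher and 2 lower among the other thin filament genes. For this threshold no count over all genes was at hand. Quantile normalization reversed Tnnt3 (0.15), Tnnc1 (0.77) and Tpm1 (0.20) and also moved Tnni2 (-0.09), Tnnc2 (-0.07) and Tpm2 (0.52, limma adjusted p = 0.0478, short of the fold threshold), median centring reversed Tpm1 (0.11), library weights reversed Tnnt1 (-0.077) and Tpm1 (0.018), 2 added reads reversed Tnnc1 (0.23), thinning reversed Tnnt1 (-0.17) and voom reversed Tnnt1 (-0.026).

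The labels give both groups replicate numbers, but same-numbered libraries did not deviate together (r = 0.05, -0.06 and -0.05 for numbers 1 to 3). With so few libraries in a group, this cannot settle whether the numbers pair them. With a replicate block 1 member was lower, Tnni2 (-0.64, limma adjusted p = 0.0309), beside 3245 of all 12239 genes. The values that reversed were Tnnt1 (-0.74), Tpm1 (0.017), Tnnt3 minus Tnnt1 (0.40) and Tnnc2 minus Tnnc1 (0.21). WT replicate 4 shares its number with no C2-/- library, so the block gives it no weight. These log2 changes equal those without WT replicate 4. With the block and GC correction the values that reversed were Tnnt3 (0.45), Tnni2 (0.69), Tnnc2 (0.44), Tnnc1 (0.14), Tpm1 (0.16), Tnnt3 minus Tnnt1 (0.24) and Tnnc2 minus Tnnc1 (0.30). The cause of the differences under GC correction was not tested.

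Leaving out each library in turn gave from 0 to 1 members higher, from 0 to 2 lower, and from 2 to 5 other thin filament genes lower, while over all genes it gave 1896 to 2876 higher and 2193 to 3260 lower. The changes ranged from -0.74 to 1.63 for Tnnt1, from -0.96 to 0.69 for Tnnc1, from -0.12 to 0.017 for Tpm1, from -1.83 to 0.40 for Tnnt3 minus Tnnt1 and from -1.11 to 0.62 for Tnnc2 minus Tnnc1. Tpm3 kept its direction and did not pass in any of its 19 alternatives, but was at -0.24 without C2-/- replicate 2 (main -0.47), and Tpm2 was at 0.062 without C2-/- replicate 3 (main 0.16). The slow troponins had the fewest reads of the 9 genes, from 0 to 101 per library.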
